A study of Mus musculus with 25 samples.

Results

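Regulatory T cells are CD4 T cells that hold other T cells in check, and 9 genes used to recognise them were followed here: Foxp3, Ikzf2, Il2ra, Itgae, Ccr8, Ccr4, Lrrc32, Il10 and Gpr83. They were found by symbol among the 55450 genes of the deposited count table, and each of the 9 matched 1 row. Foxp3 was also set against Cd4 and Cd8a, the genes of the coreceptors that mark helper and killer T cells.

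The transcription factor FOXP3 maintains the regulatory T cell programme, and it works with partners that include Helios, the product of Ikzf2. These cells depend on interleukin 2, which they capture with the high-affinity receptor chain CD25, the product of Il2ra. They carry CTLA-4 constantly, and an antibody against CTLA-4 can act on them as well as on the T cells they restrain. None of these genes belongs to regulatory T cells alone: activated T cells, dendritic cells, endothelium or platelets can express single ones.

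The 25 tumours were melanomas of the mouse line B2905, also named M4, grown from cultured cells in C57BL/6 mice, with treatment started at a mean volume of 75 mm3. Controls were 5 tumours of mice given an isotype IgG2b antibody. The study gave anti-CTLA-4 to 30 mice, and tumours of 20 of them were sequenced. Both antibodies were given at 10 mg/kg. By the change in size 10 to 11 days after the last dose, the submitters named 8 of the 20 responders (shrinking), 6 stable and 6 non-responders (growing). All groups share the same line and strain, and the 5 untreated mice of the study were not analysed here. Each library is 1 whole tumour piece, so fewer cells of a type and less RNA per cell cannot be told apart. The tumours within a group are numbered in record order, and these numbers only name them.

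Total counts per library were between 8.76 and 34.3 M. Protein-coding genes took 82.9 to 89.2% of counts in the 17 tumours outside the responders, but 23.8 to 87.0% in responders, where 7 of 8 lay below every other tumour and responder 5 was the exception. The sum of 10 pan-T cell genes, Cd3e among them, had a median of 13.6 counts per M of the TMM-scaled library (CPM) in controls, range 9.40 to 31.2. Non-responders had 106 (27.6 to 210), stable tumours 200 (160 to 250) and responders 180 (133 to 262), and none of the 10 was at 0 throughout a group. Of 7 melanocyte genes, 7 were lower under anti-CTLA-4 than in controls (23.4% of all genes tested were). By group 7 were lower in responders (28.9% of all genes tested), 7 in stable tumours (19.6%) and 1 in non-responders (3.29%). The summed CPM of the 7 genes had medians of 12000 (control), 2380 (non-responder), 400 (stable) and 373 (responder). The part of T cell content in the differences below was not tested. Foxp3 was set against Cd4 and Cd8a as ratios of counts, which do not count cells.

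RefSeq promoters on GRCm38.p6 (250 bases before to 50 after a start) were matched for 5 of the 9 genes: Foxp3, Il2ra, Ccr8, Ccr4 and Gpr83. Those of the 4 that rose together under anti-CTLA-4 are shown, with letters in capitals where a searched motif matched on either strand. The motifs were GGAAA (the core bound by NFAT, a factor of T cell activation), TTCNNNGAA (bound by STAT factors, which act downstream of interleukin 2), TGTGGT (RUNX), TGANTCA (AP-1) and GTAAACA (forkhead factors, the class of FOXP3). They lie at chrX:7579426-7579725 (plus strand) and chrX:7580233-7580532 (plus strand) for the 2 starts of Foxp3, chr2:11642542-11642841 (plus strand) for Il2ra, chr9:120091883-120092182 (plus strand) for Ccr8 and chr9:114496495-114496794 (minus strand) for Ccr4.
Foxp3 start 1: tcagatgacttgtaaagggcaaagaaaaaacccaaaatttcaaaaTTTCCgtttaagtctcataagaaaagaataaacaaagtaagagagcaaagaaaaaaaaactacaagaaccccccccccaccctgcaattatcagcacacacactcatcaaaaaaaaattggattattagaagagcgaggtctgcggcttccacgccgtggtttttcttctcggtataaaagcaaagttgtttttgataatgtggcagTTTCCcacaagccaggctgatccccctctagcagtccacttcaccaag
Foxp3 start 2: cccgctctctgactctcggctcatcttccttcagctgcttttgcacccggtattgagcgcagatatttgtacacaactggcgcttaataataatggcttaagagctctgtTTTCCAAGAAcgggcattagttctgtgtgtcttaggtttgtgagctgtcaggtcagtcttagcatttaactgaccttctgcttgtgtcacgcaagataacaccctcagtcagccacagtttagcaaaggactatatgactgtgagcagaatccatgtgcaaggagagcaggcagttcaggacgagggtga
Il2ra: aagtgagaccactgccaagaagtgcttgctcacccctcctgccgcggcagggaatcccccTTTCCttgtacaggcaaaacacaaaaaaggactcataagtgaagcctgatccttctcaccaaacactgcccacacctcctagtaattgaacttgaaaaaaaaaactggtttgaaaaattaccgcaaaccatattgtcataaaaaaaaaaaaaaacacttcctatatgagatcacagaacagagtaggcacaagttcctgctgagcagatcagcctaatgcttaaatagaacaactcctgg
Ccr8: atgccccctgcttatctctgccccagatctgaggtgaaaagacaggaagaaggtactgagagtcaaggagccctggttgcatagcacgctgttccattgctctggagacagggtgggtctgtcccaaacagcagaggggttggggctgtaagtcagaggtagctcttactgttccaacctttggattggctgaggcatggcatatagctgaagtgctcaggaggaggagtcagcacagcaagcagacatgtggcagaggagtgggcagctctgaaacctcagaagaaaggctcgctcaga
Ccr4: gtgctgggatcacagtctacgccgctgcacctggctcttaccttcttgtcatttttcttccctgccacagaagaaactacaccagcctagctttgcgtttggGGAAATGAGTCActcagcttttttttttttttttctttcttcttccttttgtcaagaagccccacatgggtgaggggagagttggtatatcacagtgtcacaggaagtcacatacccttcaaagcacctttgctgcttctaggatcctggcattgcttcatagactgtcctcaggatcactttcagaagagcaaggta

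GGAAA matched in both Foxp3 promoters, in Il2ra and in Ccr4. At the second Foxp3 start it overlapped a match of TTCNNNGAA, so the capitals there cover both, and in Ccr4 it lay beside a match of TGANTCA. No searched motif matched in the Ccr8 or the Gpr83 window. Among all 32851 promoters of this length, GGAAA was present in 61.3%, TTCNNNGAA in 8.30%, TGTGGT in 16.8%, TGANTCA in 7.81% and GTAAACA in 3.65%. These matches describe letters and not binding.

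The first question was whether these genes differed between tumours under anti-CTLA-4 and controls. Of the 9 genes, 8 passed the filter on low counts, and 7 of those 8 were higher under anti-CTLA-4 (edgeR quasi-likelihood test, adjusted p under 0.05 over the 18031 genes tested). Across all genes tested, 27.7% were higher, 23.4% lower and 51.1% called in either direction. The median log2 fold change of the 8 was 2.46, against 0.0676 over all genes tested. Il10 was not called, and Gpr83 was left out by the filter. In each of those 7, non-responder 3 had the lowest level of all 20 anti-CTLA-4 tumours.

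Foxp3 (ENSMUSG00000039521.13, chrX:7573644-7595245, plus strand, GRCm38) is the defining transcription factor. Its level in the 5 controls was 0.267, 1.10, 0.861, 0.795 and 1.81 CPM, on 8 to 35 counts per tumour. In non-responders it ran from 0.816 to 8.24 CPM with a median of 3.67, in stable tumours from 4.96 to 10.5 with a median of 6.43, and in responders from 5.54 to 10.7 with a median of 6.89. Every stable tumour and responder lay above every control, whereas 5 of 6 non-responders did. The log2 fold change of anti-CTLA-4 over control was 2.61 (SE 0.39, edgeR adjusted p = 1.04e-05), or 6.10-fold.

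Ikzf2 (ENSMUSG00000025997.13, chr1:69531214-69687245, minus strand) encodes Helios. Controls had 18.4, 19.7, 20.7, 18.3 and 25.4 CPM. The lowest, median and highest levels were 22.0, 44.9 and 49.5 CPM in non-responders, 40.0, 47.1 and 67.5 in stable tumours and 42.2, 63.1 and 71.4 in responders. Its rise under anti-CTLA-4 was smaller than that of Foxp3 in log2 units, at 1.26 (SE 0.18, edgeR adjusted p = 5.14e-06), and the difference between the genes was not tested. Its control level was already high per length: 2.34 ± 0.351 RPKM (reads per kilobase and M reads, SD, n = 5), beside 0.698 ± 0.357 RPKM for Cd3e, a gene of every T cell. The authors' RPKM for Lrrc32 in controls was likewise above Cd3e, at 1.75 ± 0.503 (SD, n = 5), so controls held more RNA of these 2 genes per length than of a pan-T cell gene.

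The first of the receptors, Il2ra (ENSMUSG00000026770.5, chr2:11642807-11693193, plus strand), encodes the interleukin 2 receptor alpha chain. It was at 0.333, 1.80, 1.14, 1.10 and 3.05 CPM in controls. Non-responders had 2.28 to 14.6 CPM (median 10.1), stable tumours 14.2 to 27.7 (median 19.9) and responders 15.9 to 27.4 (median 20.0). Stable tumours and responders did not overlap with controls, and 5 of 6 non-responders lay above every control. The log2 fold change under anti-CTLA-4 was 3.40 (SE 0.41, edgeR adjusted p = 9.77e-07).

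Itgae (ENSMUSG00000005947.11, chr11:73090583-73147446, plus strand) encodes CD103, the alpha chain of an integrin that binds E-cadherin. It had 3.50, 4.16, 3.17, 3.23 and 7.50 CPM in controls, and 4.17 to 29.1 CPM (median 15.6) in non-responders. Stable tumours had 18.0 to 49.97 CPM (median 22.7) and responders 17.2 to 41.8 (median 20.3), again without overlap with controls. Its log2 fold change under anti-CTLA-4 was 2.31 (SE 0.36, edgeR adjusted p = 1.4e-05). Dendritic cells can also carry CD103. Of 6 genes of type 1 dendritic cells, 4 were higher and 2 lower in the same comparison (27.7% and 23.4% of all genes tested). Clec9a was among the higher (log2 fold change 3.29, mean 0.699 CPM in controls) and Cadm1 among the lower (-0.685, mean 227 CPM in controls). The part of dendritic cells in the rise of Itgae was not tested.

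Per length the chemokine receptors were scarce: the authors' RPKM averaged 1.36 for Ccr8 and 0.538 for Ccr4 over the 20 anti-CTLA-4 tumours, beside 4.15 for Il2ra. Ccr8 (ENSMUSG00000042262.5, chr9:120092114-120094906, plus strand), known from regulatory T cells inside tumours, had 2, 2, 4, 4 and 13 counts in controls, or 0.0667, 0.0737, 0.157, 0.110 and 0.673 CPM. It reached 0.258 to 2.64 CPM in non-responders (median 0.988), 1.58 to 3.36 in stable tumours (median 2.52) and 1.40 to 3.87 in responders (median 2.54). Control 5 was the highest control by a wide margin, yet below every stable tumour and responder. The log2 fold change under anti-CTLA-4 was 3.26 (SE 0.52, edgeR adjusted p = 1.9e-05), and 4.21 without control 5.

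Ccr4 (ENSMUSG00000047898.7, chr9:114490316-114504916, minus strand), a receptor that guides T cells to CCL17 and CCL22, had 0.167, 0.221, 0.196, 0.0548 and 0.569 CPM in controls. Its levels were 0.473 to 1.49 CPM in non-responders (median 1.15), 1.29 to 2.44 in stable tumours (median 2.06) and 0.559 to 3.51 in responders (median 1.78). Here 1 responder, tumour 4 at 0.559 CPM on 4 counts, fell within the range of controls. The log2 fold change under anti-CTLA-4 was 2.73 (SE 0.44, edgeR adjusted p = 2.08e-05).

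Lrrc32 (ENSMUSG00000090958.2, chr7:98489283-98502181, plus strand) encodes GARP, which holds latent TGF-beta on the surface of activated regulatory T cells. Controls had 5.67, 11.0, 9.55, 6.96 and 9.78 CPM. Non-responders had 10.6 to 21.2 CPM (median 18.2), stable tumours 19.4 to 30.3 (median 22.9) and responders 15.6 to 29.6 (median 19.0). Stable tumours and responders stood above every control, and the log2 fold change under anti-CTLA-4 was 1.25 (SE 0.18, edgeR adjusted p = 7.72e-06). Endothelium and platelets can also express Lrrc32. Of 6 endothelial genes 3 were lower under anti-CTLA-4 (23.4% of all genes tested were) and the other 3 were not called. Of 4 platelet genes the 2 tested were higher (27.7% of all genes tested were). The other 2 platelet genes had too few counts to test, with group means of 0 to 0.223 CPM. For each of them the mean in controls exceeded that in stable tumours and that in responders. Against controls, their means in non-responders went in opposite directions (0.223 against 0.135 CPM, and 0.0205 against 0.0267 CPM). The part of endothelium and platelets in the rise of Lrrc32 was not tested.

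Il10 (ENSMUSG00000016529.5, chr1:131019845-131024974, plus strand), a cytokine that dampens immune responses, was near the limit of detection, on 0 to 20 counts per tumour. Its levels were 0.233, 0.221, 0.587, 0.219 and 0.207 CPM in controls, 0.301 to 0.832 in non-responders (median 0.610), 0.287 to 0.826 in stable tumours (median 0.441) and 0 to 0.809 in responders (median 0.317). All groups overlapped. The log2 difference under anti-CTLA-4 was 0.67 (95% interval -0.16 to 1.5, edgeR adjusted p = 0.189), so a difference was not detectable at this depth.

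Gpr83 (ENSMUSG00000031932.14, chr9:14860210-14870789, plus strand) encodes a receptor enriched on regulatory T cells. It had 0 counts in all 5 controls, where 3 counts over the group, taken as a floor, would be a pooled level of 0.0217 CPM. There were 22 counts over the non-responders, 43 over the stable tumours and 28 over the responders, with 0 to 10 counts in each anti-CTLA-4 tumour. Pooled levels were 0.165 CPM (95% exact Poisson interval 0.103 to 0.249), 0.373 (0.270 to 0.502) and 0.258 (0.171 to 0.373), intervals that cover counting error only. Divided by that floor, the pooled levels gave 7.60 for non-responders, 17.2 for stable tumours and 11.9 for responders. These values are not lower bounds, since the 95% Poisson interval of the controls reached 0.0266 CPM. Without the filter on low counts Gpr83 passed the edgeR test in the same direction for each (adjusted p = 0.00635, 9.26e-05 and 0.000175). It also passed in DESeq2 (adjusted p = 0.00117, 1.43e-06 and 9.62e-06). In limma on log2(RPKM + 1) it passed in stable tumours (adjusted p = 0.0182) but not in non-responders (0.612) or responders (0.065).

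**Figure D1:**
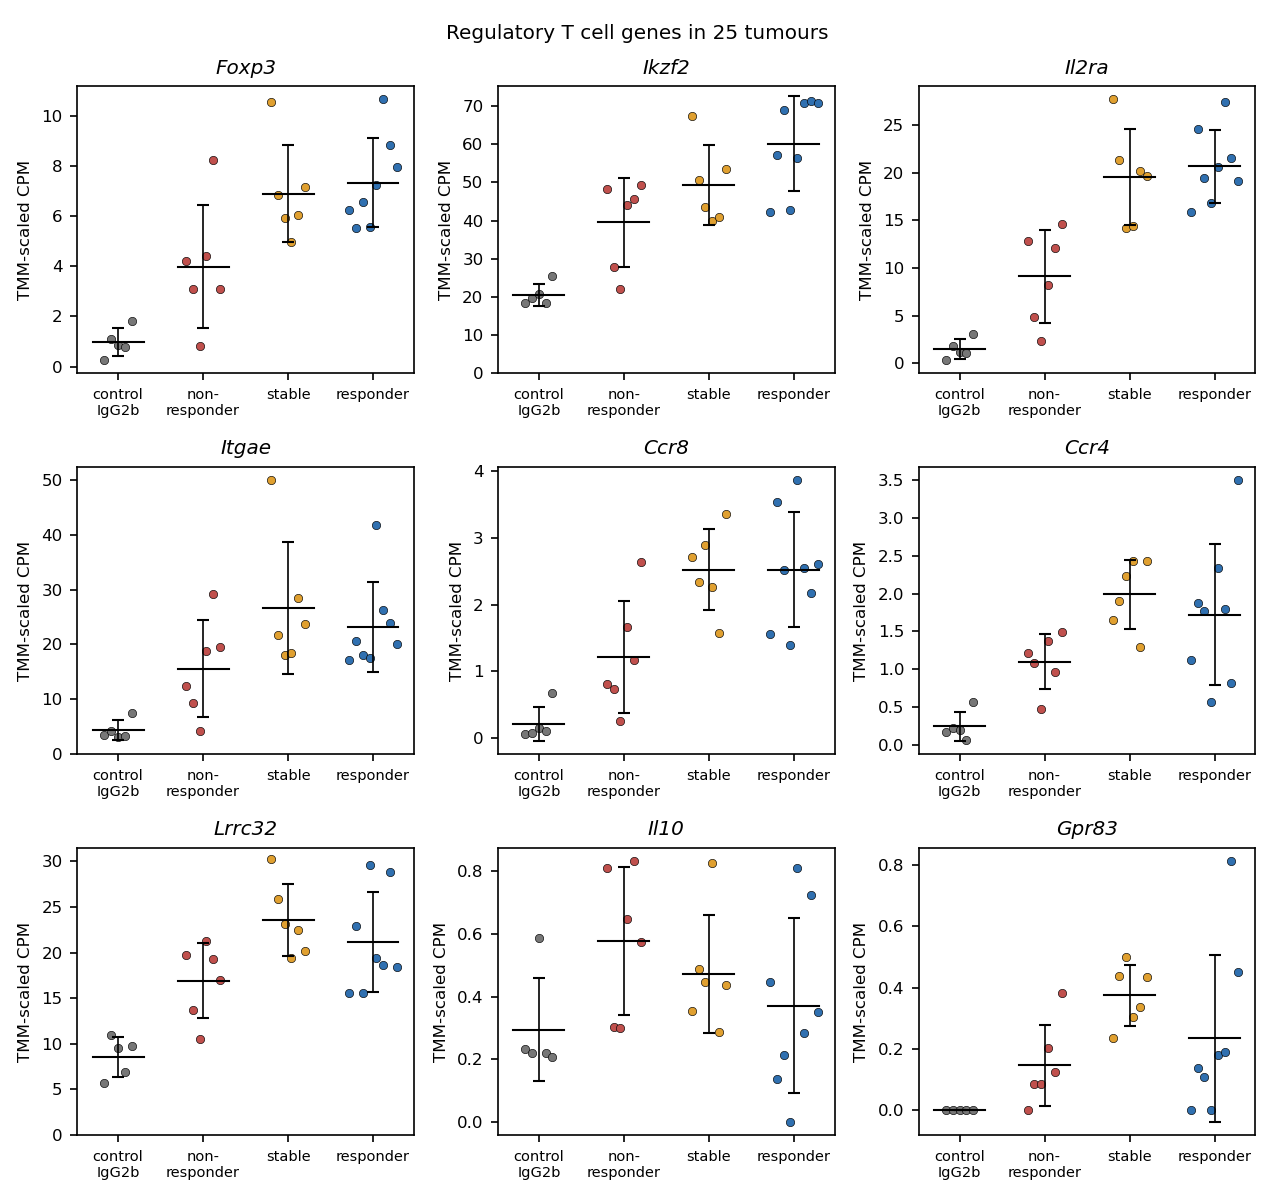
Level of each of the 9 genes in every tumour, in CPM (vertical axes, linear), for controls, non-responders, stable tumours and responders. Points are tumours and bars the mean and SD. In 7 of the genes the stable tumours stand clear of the controls, and the non-responders overlap with both. Il10 overlaps in all groups, and Gpr83 is at 0 in every control.

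Split by outcome, 7 of the 8 tested genes were higher than control in each anti-CTLA-4 group, and these were the 7 named above. Of all genes tested, 10.6% were higher and 3.29% lower in non-responders (13.9% called in either direction). In stable tumours 22.2% were higher and 19.6% lower (41.8%), and in responders 36.1% were higher and 28.9% lower (65.0%). The 3 comparisons share the 5 controls. The median log2 fold change of the 8 genes was 1.95 (non-responder), 2.74 (stable) and 2.67 (responder), beside 0.0374, 0.0247 and 0.158 over all genes tested. All stable tumours lay above all controls in 8 of the 9 genes counted with Gpr83 (18.4% of all genes tested did so), leaving Il10. In responders this held for 6 genes (14.9% of all genes tested). In each of the 7 genes called, 5 of 6 non-responders lay above every control, and non-responder 3 was the one that did not.

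The next comparison asked whether these genes separated tumours that shrank from tumours that grew under the same antibody. In responders 4 of the 8 genes tested were higher than in non-responders: Il2ra, Ccr8, Foxp3 and Ikzf2 (25.2% of all genes tested were higher, 23.8% lower and 48.9% called in either direction). The median log2 fold change of the 8 was 0.643, beside 0.0523 over all genes tested. Il2ra was the only 1 of the 9 in which every responder (lowest 15.9 CPM) lay above every non-responder (highest 14.6 CPM), a separation that 2.07% of all genes tested had. Its log2 fold change was 1.18 (SE 0.35, edgeR adjusted p = 0.00811). Ikzf2 was higher by 0.61 (SE 0.18, adjusted p = 0.00765), with 6 of 8 responders above every non-responder. Foxp3 was higher by 0.88 (SE 0.35, adjusted p = 0.0423) and Ccr8 by 1.07 (SE 0.44, adjusted p = 0.0465), each with 2 of 8 responders above every non-responder.

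The other 4 genes tested did not pass. The log2 differences were 0.58 for Itgae (95% interval -0.06 to 1.22), 0.68 for Ccr4 (-0.07 to 1.43), 0.32 for Lrrc32 (-0.04 to 0.68) and -0.58 for Il10 (-1.46 to 0.30). The pan-T cell gene Cd3e was higher in responders by 1.27 (SE 0.36, edgeR adjusted p = 0.0067), while Cd4 (0.32, adjusted p = 0.35) and Cd8a (0.76, adjusted p = 0.147) were not called. When the fit also held each library's protein-coding share, Ikzf2 alone of the 8 passed (0.79, adjusted p = 0.0333). In that share 7 of 8 responders lay below every other tumour, so this fit can hardly tell share and responder group apart. The percentage of all genes called in this fit is not given here. The differences of the other 3 were then as large or larger but not called: 0.89 for Foxp3 (adjusted p = 0.181), 1.29 for Il2ra (0.0579) and 1.47 for Ccr8 (0.0687). Responder 5, whose share lay among those of the other groups, had 7.23 CPM of Foxp3, 20.6 of Il2ra, 56.4 of Ikzf2 and 3.87 of Ccr8. Each lay inside the range of the other responders or, for Ccr8, above it. These values are from a single tumour, and the part of the share in the differences was not tested.

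The Foxp3 and Ccr8 calls depended on the fit and on which tumours were included. With only the 2 groups in the fit the Foxp3 call was lost (0.89, edgeR adjusted p = 0.0518), and with no filter on low counts both were (0.81, adjusted p = 0.0733 for Foxp3 and 0.99, adjusted p = 0.0843 for Ccr8). The Foxp3 call was lost when any 1 of non-responders 1, 2, 3, 4 and 6 or responders 6, 7 and 8 was left out, with log2 differences from 0.669 to 1.23 over all 25 omissions. That of Ccr8 was lost in 17 of the 25 omissions, controls 3 and 4 and 5 of the stable tumours included, with differences from 0.855 to 1.46. The calls of Il2ra and Ikzf2 held in all 25.

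Between stable tumours and non-responders Il2ra was the 1 gene of the 8 called, and 7.08% of all genes tested were higher and 7.86% lower (14.9% called in either direction). Its log2 fold change was 1.10 (SE 0.36, edgeR adjusted p = 0.0423), with 4 of 6 stable tumours above every non-responder. The call was lost when non-responder 2, 3 or 4 or stable tumour 1, 2, 3, 5 or 6 was left out. Foxp3 differed by 0.79 (95% interval 0.06 to 1.52, edgeR adjusted p = 0.156), Itgae by 0.78 (0.10 to 1.46) and Ccr8 by 1.05 (0.15 to 1.94). Ccr4 differed by 0.85 (0.06 to 1.64) and Lrrc32 by 0.48 (0.10 to 0.85). Each was higher in stable tumours and none was called, and the intervals are not adjusted for the number of genes. The median log2 difference of the 8 genes was 0.785, beside -0.019 over all genes tested. Cd4 was higher in stable tumours by 0.99 (SE 0.30, adjusted p = 0.0298), and every stable tumour lay above every non-responder.

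Between responders and stable tumours 0 of the 8 genes were called by edgeR, 0 had an unadjusted p under 0.05 and DESeq2 called 0, while 20.5% of all genes tested were higher and 17.8% lower in responders (38.2% in either direction). No gene of the 9 had every responder above every stable tumour, as 0.427% of all genes tested had. The 8 log2 differences ran from -0.32 for Il10 to 0.29 for Ikzf2, with a median of -0.0685. For Foxp3 the difference was 0.09 with a 95% interval of -0.59 to 0.77, and for Il2ra 0.08 (-0.58 to 0.74), so differences within those bounds could not be told from 0.

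**Figure D2:**
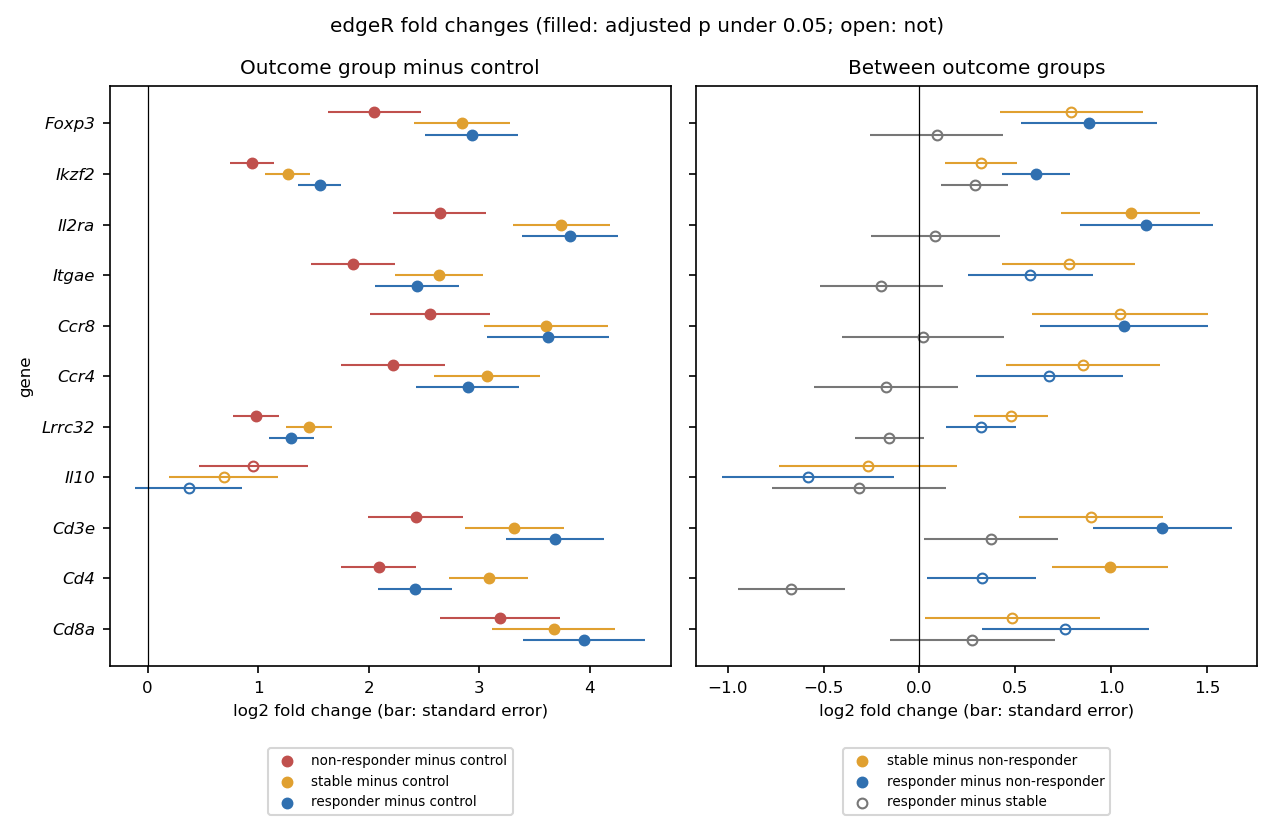
Log2 fold changes (horizontal axes) with their standard errors for the 8 genes tested and the T cell genes Cd3e, Cd4 and Cd8a, for each anti-CTLA-4 group against control on the left and between the outcome groups on the right. Filled points passed an adjusted p of 0.05 in edgeR, and open points did not. Against control every gene but Il10 has filled points to the right of 0, and the points for responder minus stable lie around 0.

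In order of mean level, Foxp3, Ikzf2 and Il2ra were highest in responders, then stable tumours, non-responders and controls, and Ccr8 had the same mean of 2.53 CPM in responders and stable tumours. Itgae, Ccr4, Lrrc32 and Gpr83 were highest in stable tumours, then responders, non-responders and controls, and Il10 was highest in non-responders. Of the neighbours in these orders, non-responder and control differed for the 7 called genes, stable tumour and non-responder for Il2ra, and no other neighbouring groups passed the edgeR test.

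Ratios within a library need no scaling, and they set Foxp3 against the RNA of the coreceptor genes, not against a count of T cells. The counts of Foxp3 per count of Cd4 were 0.0625, 0.204, 0.237, 0.240 and 0.318 in the 5 controls. They ran from 0.103 to 0.301 in non-responders (median 0.224), from 0.134 to 0.300 in stable tumours (median 0.176) and from 0.182 to 0.437 in responders (median 0.337). In 6 of 8 responders the ratio was above that of every stable tumour and in 6 of 8 above every non-responder. The exceptions were responder 2 at 0.258 and responder 5 at 0.182. Responder 5 was also the only responder whose protein-coding share (87.0%) lay among those of the other groups. The part of the low share of the other responders in the ratio was not tested.

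The responders' ratio to Cd4 was higher than that of stable tumours by 0.83 log2 units, or 1.77-fold (two-sided exact permutation p = 0.00566, adjusted p = 0.0264 over the 14 ratio tests). The differences from non-responders (0.63, exact p = 0.0376, adjusted p = 0.0878) and from controls (0.76, exact p = 0.0357, adjusted p = 0.0878) did not pass the adjustment. Without responder 5 the difference from non-responders was 0.74 with an adjusted p of 0.0204, but only responders of low protein-coding share were then left. From the authors' RPKM with all tumours the difference from non-responders was 0.06 (exact permutation p = 0.874). The difference from stable tumours kept its size without control 4, which is not in it, but its adjusted p over the 14 tests was then 0.0793. Over all 20 anti-CTLA-4 tumours the ratio differed from controls by 0.32 log2 units (exact p = 0.342, adjusted p = 0.598), and by -0.08 without control 1, whose ratio rests on 8 Foxp3 counts. Mean Foxp3 was 6.90 CPM in stable tumours and 7.33 in responders, and mean Cd4 37.8 and 23.7 CPM (log2 difference -0.67, edgeR adjusted p = 0.0617). In that comparison 0 of 10 pan-T cell genes were called (38.2% of all genes tested were), with a median log2 difference of -0.16. Of 8 macrophage genes 6 were lower and 1 higher (17.8% and 20.5% of all genes tested were). How much of the Cd4 RNA came from T cells was not tested.

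Against Cd8a the order was another. Foxp3 per Cd8a was 0.250, 0.448, 0.344, 0.784 and 0.333 in controls. It ran from 0.0634 to 0.483 in non-responders (median 0.225), from 0.195 to 0.274 in stable tumours (median 0.212) and from 0.128 to 0.318 in responders (median 0.209). In 14 of 20 anti-CTLA-4 tumours it lay below every control. The ratio was lower than in controls by 0.94 log2 units, to 0.523 of the control level (difference -0.936, exact permutation p = 0.00454, adjusted p = 0.0264). By group the difference was -0.97 in responders (exact p = 0.00311, adjusted p = 0.0264), -0.82 in stable tumours (exact p = 0.00866, adjusted p = 0.0303) and -1.01 in non-responders (exact p = 0.0866, adjusted p = 0.173). The 3 share the 5 controls.

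Control 4, with the highest ratio to Cd8a, carried part of this: without it the difference was -0.692 over all anti-CTLA-4 tumours (adjusted p = 0.101), -0.726 in responders (0.0848) and -0.577 in stable tumours (0.0889). With Cd8b1 added to the denominator the differences were -0.842, -0.776 and -0.801 and were not called (adjusted p = 0.0722, 0.0878 and 0.0722). From the authors' RPKM the same differences were larger and called, at -2.89, -3.0 and -3.09 (adjusted p = 0.000264, 0.00272 and 0.00433, exact permutation tests). Between outcome groups the ratio of counts to Cd8a was not called: responder minus non-responder was 0.04 (exact p = 0.932), responder minus stable -0.15 (exact p = 0.451) and stable minus non-responder 0.19 (exact p = 0.71).

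Against the pan-T cell gene Cd3e, given as a description with no test, the order differed from that against Cd4. Foxp3 counts per Cd3e count had medians of 0.647 in controls (0.533 to 0.879), 0.599 for the non-responders (0.307 to 0.900), 0.508 for the stable tumours (0.470 to 0.648) and 0.432 for the responders (0.268 to 0.538). Responders thus had the lowest median per Cd3e and the highest per Cd4, and all groups overlapped with their neighbours.

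**Figure D3:**
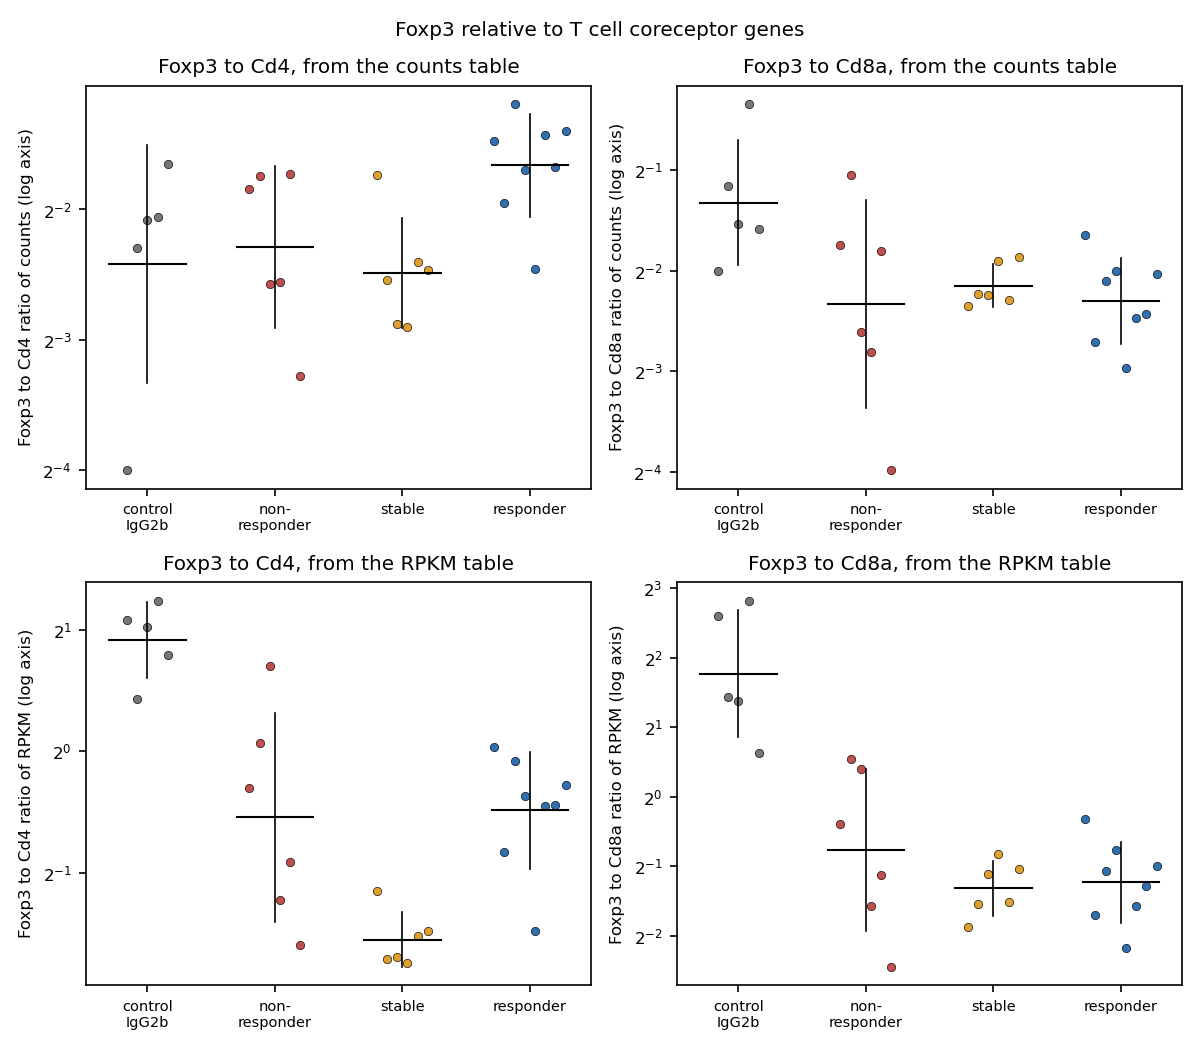
Foxp3 relative to Cd4 (left) and Cd8a (right) in each tumour (vertical axes, log scale) by group, from the counts (top) and from the authors' RPKM (bottom), with the mean and SD of the log2 ratio as lines. In the counts 6 of 8 responders sit above every stable tumour per Cd4, and 14 of 20 anti-CTLA-4 tumours below every control per Cd8a, while in RPKM the controls are high in both ratios.

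The authors' RPKM table did not give the same picture for Foxp3, and for this gene the results depend on which table is read. Its RPKM in the 5 controls was 2.18, 1.97, 2.02, 2.11 and 2.63, near the 1.98 of non-responder 3 and not far below the medians of 3.15 (non-responders), 3.30 (stable) and 4.58 (responders). The counts of the same controls were 8, 30, 22, 29 and 35. RPKM per CPM, which a fixed gene length would keep nearly constant, ran from 0.417 in stable tumour 1 to 8.19 in control 1, a range of 19.7-fold. For Il2ra it spanned 1.52-fold, for Ikzf2 1.27-fold and for Lrrc32 1.23-fold, and the median over 12624 genes present in every tumour was 1.37-fold. Only 0.23% of those genes had a range as wide as that of Foxp3.

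A line through the 25 tumours put Foxp3 at 1.71 RPKM where the counts are at 0, and Il2ra at -0.0862. Pearson's r between the tables over these tumours was 0.853 for Foxp3 and 0.975 for Il2ra. As background, in the annotation Foxp3 shares positions with Ccdc22 (1437 bases, opposite strand), Ppp1r3f (640 bases, opposite strand), the processed transcript Gm36995 (21602 bases, opposite strand, the whole of Foxp3) and the non-coding gene Flicr (7384 bases, same strand). In the counts, Ccdc22 was at 18.6 ± 2.31 CPM in controls (SD, n = 5), 17.7 ± 1.48 in non-responders and 15.1 ± 2.2 in stable tumours (both SD, n = 6) and 16.6 ± 2.78 in responders (SD, n = 8). Gm36995 was at 2.39 ± 0.891, 1.90 ± 0.664, 2.83 ± 0.931 and 4.34 ± 1.27 CPM in the same order (SD). How reads over shared positions were assigned in either table is not given in the sources used here, and the part of these genes in the difference was not tested.

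**Figure D4:**
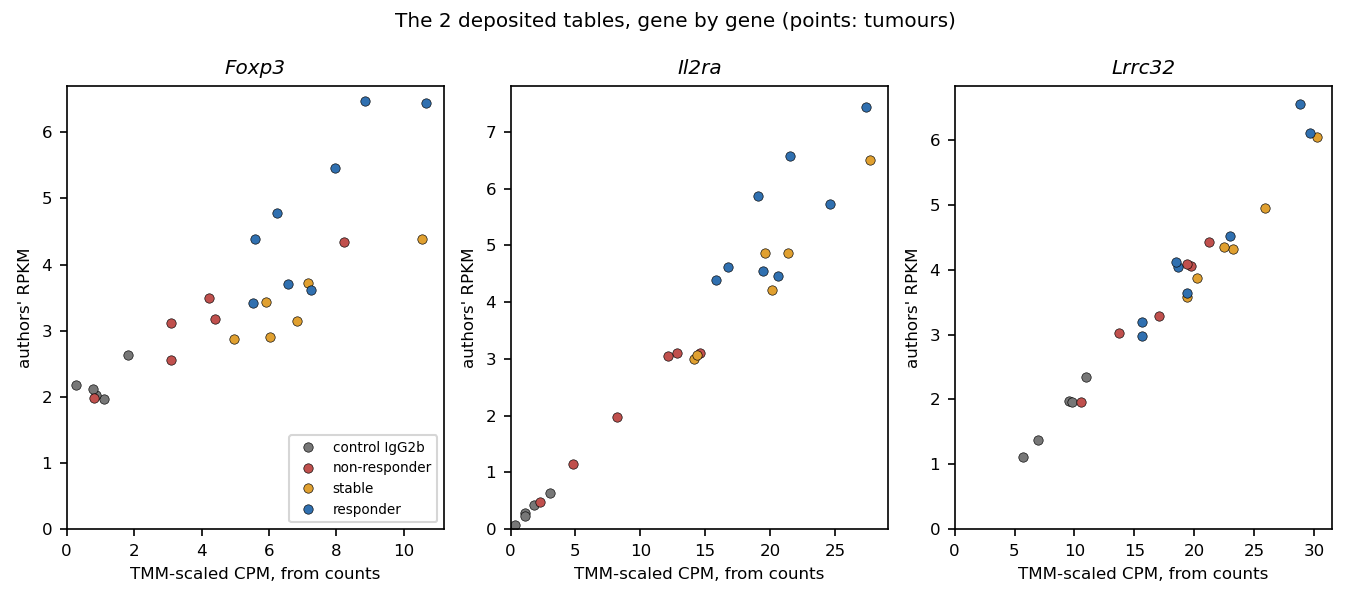
Deposited RPKM (vertical axes) against CPM from the deposited counts (horizontal axes) in the 25 tumours, for Foxp3, Il2ra and Lrrc32, coloured by group. The Il2ra and Lrrc32 points run toward the origin, while the Foxp3 points of the controls lie between 1.97 and 2.63 RPKM at 0.267 to 1.81 CPM.

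In the RPKM table, the ratio of Foxp3 to Cd4 was lower under anti-CTLA-4 than in controls, at a median of 0.548 against 2.03 (log2 difference -1.73, exact permutation p = 3.76e-05, adjusted p = 0.000264), where the counts gave 0.32. In the counts this difference from controls was not detectable (exact permutation p = 0.342), and it was -0.08 without control 1. For stable tumours the difference from controls was below 0 in the counts (-0.07) and in RPKM (-2.46). The difference between responders and stable tumours held in both, at 1.06 in RPKM (exact p = 0.00167, adjusted p = 0.00433), with 7 of 8 responders above every stable tumour. In limma on log2(RPKM + 1) Foxp3 was still higher in responders than in controls and than in non-responders (0.489, adjusted p = 0.00537), but its difference between non-responders and controls was 0.347 (adjusted p = 0.146). On that scale it was also higher in responders than in stable tumours, by 0.372 (adjusted p = 0.0385).

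Across the 25 tumours, with each group's mean subtracted, the genes whose log2 CPM was most like that of Foxp3 among 13218 genes were Dnase1l3 (Pearson's r = 0.945, Spearman's rho = 0.911), Ikzf4 (0.893 and 0.728), Wdfy4 (0.888 and 0.819), Tlr9 (0.884 and 0.862) and Cd3e (0.882 and 0.782). Ikzf4 encodes Eos, a relative of Helios, Tlr9 a sensor of DNA in dendritic cells and B cells, Wdfy4 a protein of cross-presenting dendritic cells and Dnase1l3 a secreted nuclease. Among the genes followed here r was 0.860 for Il2ra, 0.781 for Itgae, 0.718 for Ikzf2, 0.633 for Lrrc32, 0.593 for Ccr8, 0.397 for Ccr4 and 0.292 for Il10. It was 0.719 for Cd8a and 0.650 for Cd4. These values are descriptions over tumours that share libraries and scaling, and sampling noise is larger for Ccr8, Ccr4 and Il10, which have few counts.

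Partners and ligands of the 9 proteins were taken as a list of 14 genes, of which 13 were tested. Under anti-CTLA-4, 9 were higher than control and 1 lower (27.7% and 23.4% of all genes tested), with a median log2 fold change of 1.68 beside 0.0676 over all genes tested. Il2rb and Il2rg, the other chains of the interleukin 2 receptor, rose by 3.14 (SE 0.40, edgeR adjusted p = 1.82e-06) and 2.60 (SE 0.31, adjusted p = 1.04e-06). Il2 itself had too few counts to test, with mean CPM of 0.00783 (control), 0.166 (non-responder), 0.252 (stable) and 0.159 (responder).

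The CCR4 ligands Ccl22 (2.32, adjusted p = 6.2e-05) and Ccl17 (1.68, adjusted p = 0.0322) and the CCR8 ligands Ccl1 (2.84, adjusted p = 0.0031) and Ccl8 (1.67, adjusted p = 0.00427) rose as log2 fold changes under anti-CTLA-4. Itgb7, the partner chain of CD103, rose by 3.38 (adjusted p = 1.89e-06), and its ligand gene Cdh1 was not called (-0.36, adjusted p = 0.275). Tgfb1, whose latent product GARP holds, rose by 1.01 (adjusted p = 1.04e-05), while the TGF-beta activating integrin genes Itgb8 (0.50) and Itgav (-0.22) were not called. The interleukin 10 receptor genes moved apart, with Il10ra higher by 2.30 (adjusted p = 9.42e-07) and Il10rb lower (-0.61, adjusted p = 0.0029).

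Between responders and non-responders, where 25.2% of all genes tested were higher and 23.8% lower, 3 of the 13 were higher, namely Itgb7 (1.04), Il10ra (0.71) and Tgfb1 (0.63), and 2 were lower, Il10rb (-0.49) and Itgav (-0.38), so neither count exceeded the share over all genes. Between stable tumours and non-responders 5 were called, each higher (7.08% of all genes tested were): Itgb7 (1.51), Ccl22 (1.26), Il2rg (1.09), Il10ra (0.85) and Tgfb1 (0.52). From stable tumours to responders Ccl8 fell by 1.40 (SE 0.44, edgeR adjusted p = 0.0166) and was the 1 gene called, where 17.8% of all genes tested were lower. Macrophages are a cell type that can make CCL8. Of 8 macrophage genes, 6 were lower and 1 higher in that comparison (17.8% and 20.5% of all genes tested were). Their median sums were 2620 CPM in stable tumours (2210 to 3460) and 1210 in responders (1030 to 3060). The part of macrophages was not tested.

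Of 21 transcription factors and signalling genes of regulatory T cells, 13 were higher and 3 lower under anti-CTLA-4 than in controls (27.7% and 23.4% of all genes tested), with a median log2 fold change of 1.05. The 4 with the largest changes were Ikzf4 (2.40), Runx3 (2.30), Satb1 (2.23) and Batf (1.78), each a lymphocyte transcription factor. In responders 10 were higher and 2 lower than in non-responders (25.2% and 23.8% of all genes tested), with a median of 0.63 beside 0.0523 over all genes tested, led by Gata3 (1.78), Runx3 (1.72), Lef1 (1.52) and Runx1 (1.43). Many of them act in other T cells too: LEF1 is a factor of naive and memory T cells and RUNX3 of killer T cells. In stable tumours 7 were higher and 2 lower than in non-responders (7.08% and 7.86% of all genes tested), and the largest changes were those of Runx3 (1.07), Satb1 (0.98), Nfatc2 (-0.90) and Tcf7 (0.86).

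Of 27 surface and effector genes, 21 were called under anti-CTLA-4, each higher than in controls (27.7% of all genes tested were), with a median log2 fold change of 2.20 over the 27. The 4 largest were Gzmb (4.08), which encodes a granzyme of killer cells, Icos (3.88), a costimulatory receptor, Tnfrsf9 (2.94), which encodes 4-1BB, and Il12a (2.89), which encodes a subunit shared by interleukins 12 and 35. In responders 8 were higher and 2 lower than in non-responders, the first near the 25.2% of all genes tested that were higher and the second below the 23.8% that were lower, with the largest changes in Il12a (2.98), Tnfrsf9 (1.70), Tigit (1.53) and Ctla4 (1.16). In stable tumours 9 were called, each higher than in non-responders (7.08% of all genes tested were), the largest being Il12a (2.57), Tnfrsf9 (1.54), Ccr7 (1.36) and Ctla4 (1.34). Between responders and stable tumours 6 of the 27 were called, each lower in responders, a share near the 17.8% of all genes tested that were lower. The 4 largest of these were Ebi3 (-1.01), Fgl2 (-1.0), Cd83 (-0.99) and S1pr1 (-0.83), genes that dendritic cells, macrophages or endothelium also express. Of 6 endothelial genes 3 were lower in the same comparison, with median sums of 110 CPM in stable tumours (83.6 to 153) and 73.9 in responders (46.0 to 116). Their part and that of the macrophage genes was not tested.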

How the data were processed

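Libraries were made with a stranded total RNA kit per the labels' protocols, although the labels name the molecule polyA RNA. Per the submitters' processing notes the tools were bcl2fastq 2.17, Trimmomatic, STAR 2.5.1 and RSEM 1.2.22 on mm10. The authors deposited expected counts per gene, not normalized (55450 genes, 5.64% of values not whole), which were rounded to whole numbers here. They also deposited RPKM values for 19522 symbols, of which 19518 unique ones were used. Their gene lengths and denominators are not stated in those sources. All 55450 identifiers matched GENCODE M21 (GRCm38), the source of gene coordinates. The labels' library numbers follow the groups, so order of processing and group cannot be told apart.

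Counts were filtered with filterByExpr, scaled with TMM and tested in R 4.3.3 with edgeR 4.0.16 (robust quasi-likelihood fit over 25 tumours with 4 group means, 7 contrasts, two-sided, Benjamini-Hochberg adjustment over 18031 genes), a script first tested on simulated data. The anti-CTLA-4 contrast weights the 3 outcome groups equally. SE were taken from the fold change and its F statistic, and 95% intervals from them. CPM use the scaled library of tested genes. Log2 ratios of counts were compared with two-sided exact permutation tests, adjusted over 14 tests. The labels do not say more of how tumours in a group are related, so p-values measure the spread between these tumours. No 2 replicates were alike within sampling noise (lowest chi-square per gene 17.1 over 68 pairs). The alternatives were DESeq2 1.42.0, limma 3.58.1 on log2(RPKM + 1) and log2(RPKM + 0.1), RLE scaling, no filter, a stricter filter (1 CPM in 8 tumours), protein-coding genes only, the protein-coding share as a covariate, only the groups compared, other ratio denominators and values, and leaving out each tumour.

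The 9 genes, the lists and the tests were chosen with earlier results of these data known. Named throughout were the 9 genes, Cd4, Cd8a, Cd8b1 and Cd3e, the partners and ligands, at most the 4 called genes with the largest change in each other list, and the 5 genes most like Foxp3 with a mean of at least 1 CPM, without predicted, receptor segment or ribosomal protein genes.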

Additional observations from a re-analysis of the deposited data

Results flagged for a closer look

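Of 40 sets of values, 3 held a tumour whose gap to its nearest neighbour was large for the range of its group by Dixon's criterion, which chance meets in about 1 group of 20. Each was a control with few counts. In Ccr8, control 5 was the highest at -0.371 log2 CPM, and the next control was at -1.96. In Il10, control 3 was the highest at -0.54 log2 CPM, with the next at -1.58. In the ratio of Foxp3 to Cd4, control 1 was the lowest at -4.0 log2 units, with the next at -2.29, on 8 counts of Foxp3.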

How the results depend on the processing

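Against controls, 7 genes were called in every omission of 1 tumour, and 6 to 8 under the other alternatives. For responder minus non-responder the number called was 2 with no filter, 1 with the protein-coding share as covariate and 2 to 4 over omissions. For stable minus non-responder it was 0 with no filter or only the 2 groups compared, 2 in limma on log2(RPKM + 1) or log2(RPKM + 0.1), and 0 to 3 over omissions. For responder minus stable it was 1 in either limma fit and 0 in all omissions. Among single genes not called, responder minus stable changed sign for Itgae (0.0296 with the covariate, 0.0972 and 0.124 in limma), Ccr8 (-0.0182 with no filter), Ccr4 (0.26 with the covariate) and Il10 (0.0467 and 0.0275 in limma), and over omissions Foxp3 ranged from -0.00449 to 0.249, Itgae from -0.377 to 0.0772 and Ccr8 from -0.0924 to 0.118. From RPKM the ratio of Foxp3 to Cd4 was -1.4 (responder), -2.46 (stable), -1.46 (non-responder) and -1.73 (anti-CTLA-4) against control, and -1.0 for stable minus non-responder. From RPKM the ratio to Cd8a was -0.471 (responder minus non-responder), 0.0832 (responder minus stable), -0.554 (stable minus non-responder) and -2.53 (non-responder minus control). With Cd8b1 in the denominator it was 0.0252 (responder minus stable), -0.776 (responder), -0.801 (stable) and -0.842 (anti-CTLA-4 minus control). Over omissions the ratio to Cd4 ranged from 0.429 to 0.741 (responder minus non-responder), 0.745 to 0.977 (responder minus stable), -0.398 to -0.088 (stable minus non-responder), and against control from 0.361 to 0.948 (responder), -0.467 to 0.12 (stable), -0.267 to 0.327 (non-responder) and -0.0759 to 0.511 (anti-CTLA-4). The ratio to Cd8a ranged from -0.294 to 0.292, -0.241 to -0.0537 and -0.145 to 0.441 in the same order between outcome groups, and against control from -1.14 to -0.726, -0.989 to -0.577, -1.26 to -0.676 and -1.1 to -0.692. The stable minus control call was lost without any 1 stable tumour or without control 2 or 4, and the anti-CTLA-4 call without control 2 or 4. The causes were not tested. No paired analysis was possible because the labels give the tumours of different groups no shared number. Depth limits Il10, Gpr83, Ccr8 and Ccr4, and Foxp3 in controls. It also limits Il12a in controls and non-responders.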
